A study of Drosophila melanogaster with 8 samples.

Results

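Ribosomal proteins of the cytosol make up the large (RpL and the stalk proteins RpLP) and small (RpS) subunits of the ribosome, around the ribosomal RNAs. Each protein is needed in matched amounts, and in Drosophila the loss of 1 copy of many of these genes gives the Minute phenotype of slow development and thin bristles. Neuroblasts, the neural stem cells of the fly, regrow between divisions and depend on ribosome production to do so. Several of the genes have a second copy, and some of these paralogues are known mainly from the germ line.

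The genes described here are those whose symbol in the array annotation begins with RpL or RpS followed by a digit or by P. The rule found 52 of 14569 probes, which belong to 39 of 11908 named genes, 24 of the large and 15 of the small subunit. Of these, 37 genes (22 large, 15 small) had a value in at least 4 of 5 sample pairs and were tested. RpL10Aa, measured in 2 pairs, and RpLP2, measured on 1 array, were not. The current gene table lists 92 symbols of this form, and those without a probe named here were not analysed.

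The mutant genotype was ase1/ase1, where ase1 is an allele of asense, a proneural transcription factor gene on the X chromosome. The genotype labelled wild type was ase1/FM7-KrGFP. Those control cells were thus heterozygous and also carried ase1, opposite a balancer chromosome marked with KrGFP. Both were mixed neuroblasts and ganglion mother cells (the daughters that divide once more) from the ventral nerve cord of embryos at stage 11, raised at 25 °C, with 50 to 100 cells per sample. Mutant and wild-type material was hybridised together on 8 two-colour arrays that form 5 pairs, numbered 1, 3, 4, 5 and 6. Pairs 1, 4 and 5 have a repeat array (a and b), and these were averaged.

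All values are log ratios of mutant over wild type, read as log2, so that a value of 1 is a doubling in the mutant. The direction is likely rather than stated, because asense itself lay between -6.50 and -4.81 on the 8 arrays in both dye orientations (mean -6.06 ± 0.47, SD, n = 5 pairs, limma adjusted p = 4.231e-06). All 10 listed markers of neuroblasts and ganglion mother cells, asense among them, were measured in enough pairs to be tested. Of these 5 passed (50.0%, beside 18.3% of all features), 1 higher (D) and 4 lower (mira, pros, nerfin-1 and asense itself, the mutated gene). Markers of other cells were measured too. The median log ratio was -0.43 for 3 tested neuronal genes, of which elav (-0.67 ± 0.48) and Appl (-0.43 ± 0.16) fell. For 2 epidermal genes the median was -0.08. Of these, crb rose (0.52 ± 0.28), while grh was below 0 in 5 of 5 pairs but did not pass (-0.68 ± 0.53, limma adjusted p = 0.05037). The median was -1.20 for 5 glial genes, -0.83 for 4 mesoderm genes, -0.45 for 4 hemocyte genes and 0.10 for 5 germ line genes. Of the glial genes 3 fell in limma (gcm -3.77 ± 2.22, Gs2 -1.61 ± 1.12 and repo -1.20 ± 0.65). In mesoderm 1 fell (lmd -2.08 ± 1.31), in hemocytes 2 (crq -1.05 ± 0.27 and Hml -0.39 ± 0.1) and in the germ line 1 (bam -0.69 ± 0.48). No gene of these lists rose. The counts of each marker list stand beside 18.3% of all features called (6.97% higher and 11.3% lower). Levels cannot be read from ratios, and fewer cells of a type cannot be told apart from less RNA per cell. Separate embryos are not stated for the pairs, and each p-value reflects only how far these pairs spread, which may be technical.

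Averaged over their probes, few ribosomal protein genes differed between mutant and wild-type cells. Limma called 1 of the 37 tested genes higher in the mutant (RpL27) and 3 lower (RpL37-2, RpS10a and RpL17), at a Benjamini-Hochberg adjusted p below 0.05 over all features. The 4 calls are 10.8% of the genes, beside 18.3% of all 8295 features tested (6.97% higher and 11.3% lower). The median log ratio was 0.09 for the 37 genes and -0.07 for all features. Mean log ratios were under 0.5 in size for 29 of the 37 genes, and at least 1 in size for 3 (8.11%), beside 5.58% of all features. In 13 genes (35.1%) every measured pair had the same sign, beside 34.5% of all features. The share of genes with a shared sign was thus near the background, and the share of calls was below it. Taken probe by probe, the share of calls was above it instead, with 13 of 49 member probes (26.5%), in 10 genes, past the test beside 18.7% of all probes tested (7.12% higher and 11.6% lower).

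**Figure D1:**
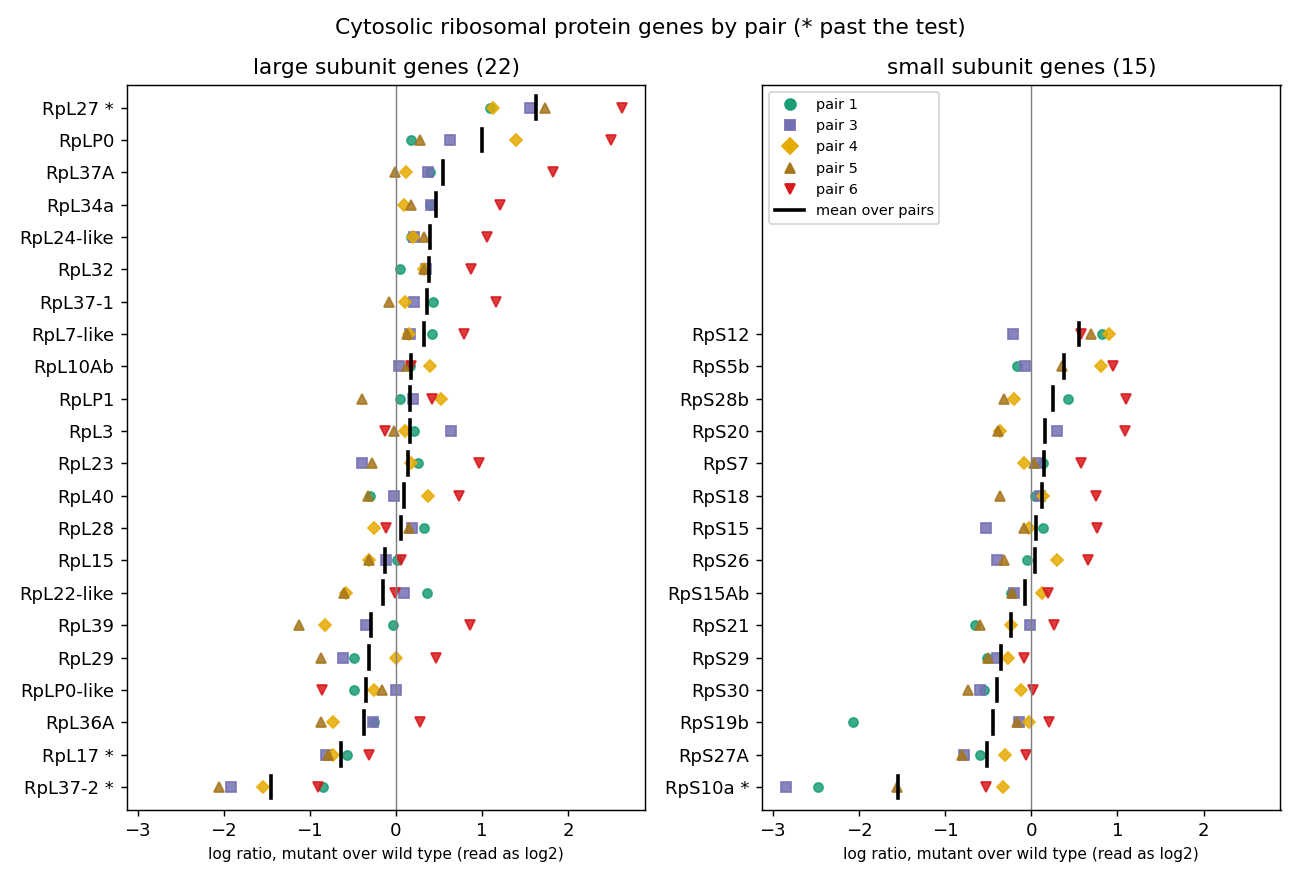
Log ratio (horizontal axis, mutant over wild type, read as log2) of each tested gene in each pair, large subunit left and small subunit right, with points for the 5 pairs and a black bar for the mean. Most means lie within 0.5 of 0, RpL27 is the highest and RpS10a the lowest, and the points of pair 6 lie to the right in most rows.

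RpL27, a protein of the large subunit, was the only gene of the set that rose when probes were averaged. Single probes of RpL32, RpL3, RpS7 and RpS12 also rose, as given further on. Each of the 4 called genes had only 1 probe. Of the 28 tested genes with 1 probe 14.3% were called, beside 18.3% of all features. The log ratio of RpL27 was 1.16 and 1.03 on arrays 1a and 1b, 1.55 on 3a, 0.57 and 1.70 on 4a and 4b, 2.81 and 0.65 on 5a and 5b, and 2.62 on 6a. All 8 arrays were above 0, but repeat arrays of pairs 4 and 5 lay far apart. The mean was 1.63 ± 0.62 (SD, n = 5 pairs, limma adjusted p = 0.004622), a 3.09-fold higher value in the mutant. The call held whichever pair was dropped, with means between 1.38 and 1.76.

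RpL37-2, the second gene for the large subunit protein RpL37, fell. It was not measured on array 1a and had -0.85 on 1b, -1.91 on 3a, -1.65 and -1.42 on 4a and 4b, -2.04 and -2.06 on 5a and 5b, and -0.90 on 6a. The 7 measured arrays were all below 0, in both dye orientations, and repeat arrays stayed close. The mean was -1.45 ± 0.56 (SD, n = 5, limma adjusted p = 0.005054), and the call held whichever pair was left out.

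RpL17, a protein that lines the tunnel through which the growing peptide leaves the ribosome, fell by less but evenly. The 8 arrays ran from -1.0 (1b) to -0.14 (1a), with pair values of -0.57, -0.81, -0.73, -0.79 and -0.31 for pairs 1, 3, 4, 5 and 6. The mean was -0.64 ± 0.21 (SD, n = 5, limma adjusted p = 0.01494). The call was lost without pair 4 (adjusted p = 0.05303), without pair 5 (0.06245) and with array a only of each pair (mean -0.51, 0.09737).

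RpS10a, a second gene for the small subunit protein RpS10, had the lowest mean of the set and one of the widest spreads. Its log ratio was -2.47 on 1b, -2.85 on 3a, -1.01 and 0.35 on 4a and 4b, -2.87 and -0.25 on 5a and 5b, and -0.52 on 6a, with no value on 1a. Repeat arrays of pair 4 had opposite signs, and those of pair 5 lay far apart. The mean was -1.55 ± 1.13 (SD, n = 5, limma adjusted p = 0.02848). It averaged -2.66 in the pairs with the mutant in Cy5 and -0.80 in those with the mutant in Cy3, a dye difference of -1.86 (unadjusted p = 0.003432, limma adjusted p = 0.9475). With a dye term in the fit the mean was -1.73 (limma adjusted p = 0.007322). The call was lost under 8 of 19 alternatives. These were leaving out pair 1, 3 or 5 (adjusted p between 0.06664 and 0.07874), array a only (0.06558), array b in its place (0.1059), exact zeros kept as values (0.0882), no moderation (0.1396) and ratios read as Cy5 over Cy3 (0.9991).

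**Figure D2:**
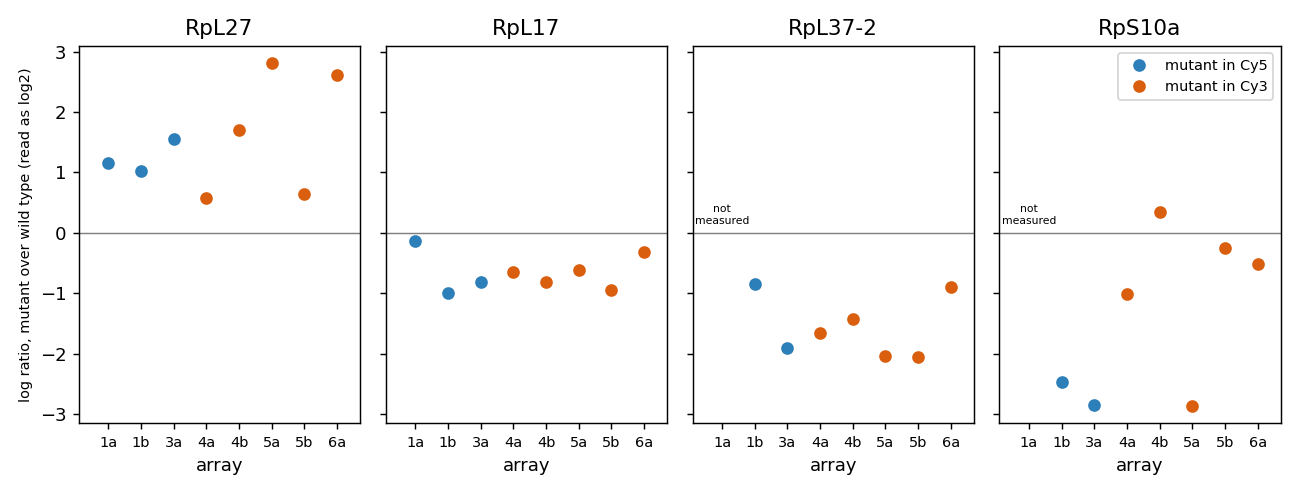
Log ratio (vertical axis, mutant over wild type, read as log2) on each of the 8 arrays for the 4 genes past the test, coloured by the dye of the mutant sample. RpL27 is above 0 on 8 arrays, RpL17 and RpL37-2 are below 0 on every array that measured them, and RpS10a is spread from -2.87 to 0.35.

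Just outside the threshold stood RpS27A, a small subunit protein made as a fusion with ubiquitin. Its pair values were -0.60, -0.78, -0.30, -0.80 and -0.06 for pairs 1, 3, 4, 5 and 6, all below 0 (mean -0.51 ± 0.32, limma adjusted p = 0.05037). The adjusted p was 0.02846 without pair 6 and between 0.09212 and 0.1602 without any other pair. RpS27A also passed among single probes (limma adjusted p = 0.04977) and among features measured in all 5 pairs (0.04739). It passed with array b (0.04196), array weights (0.01806) and pairs as random blocks (0.01227). With array a only (0.2446) and without moderation (0.1129) it did not. RpL40, the other ubiquitin fusion, had a mean of 0.09 ± 0.45 and did not pass. RpS12, a small subunit protein known for its part in the competition between Minute and normal cells, had a mean of 0.56 ± 0.45 (adjusted p = 0.06691) with 4 of 5 pairs above 0. Its adjusted p was 0.02175 without pair 3 and between 0.1124 and 0.1799 without any other pair, and its single probes are given further on.

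The stalk of the large subunit, which recruits elongation factors, is built on RpLP0 with the acidic proteins RpLP1 and RpLP2. RpLP0 had log ratios of 0.14 and 0.23 on arrays 1a and 1b, 0.63 on 3a, 1.48 and 1.30 on 4a and 4b, -0.04 and 0.59 on 5a and 5b, and 2.5 on 6a. Its mean was the second highest of the set but did not pass (1.0 ± 0.97, SD, n = 5, limma adjusted p = 0.06941). RpLP1 had pair values between -0.40 (pair 5) and 0.52 (pair 4), a mean of 0.16 ± 0.36. RpLP2 was measured only on array 4a, at 0.30.

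Other named members of the large subunit were near 0 or not past the test. RpL37A, a protein distinct from RpL37 despite the symbol, had a mean of 0.54 ± 0.74 (adjusted p = 0.173), which rested on 1.82 in pair 6 with the other pairs between -0.01 and 0.39. RpL39, which also lines the exit tunnel, ran from -1.12 in pair 5 to 0.86 in pair 6 around a mean of -0.29 ± 0.77. The smallest spreads over pairs were those of RpL10Ab (0.18 ± 0.13) and RpL15 (-0.13 ± 0.17). In the small subunit RpS30 (-0.40 ± 0.33), RpS29 (-0.35 ± 0.18) and RpS21 (-0.24 ± 0.39) were below 0 on average. RpS18 (0.13 ± 0.40), RpS15 (0.05 ± 0.47) and RpS26 (0.04 ± 0.44) were closest above it. None of these passed in limma.

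Large and small subunit genes were compared next. Of 22 large subunit genes 1 rose and 2 fell, and of 15 small subunit genes 0 rose and 1 fell in limma. That is 13.6% and 6.67% called, beside 18.3% of all features (6.97% higher and 11.3% lower). Of 8 small subunit genes above 0, 1 (RpS12) had an unadjusted p below 0.05, for which no share over all features was counted. The median log ratio was 0.15 for the large and 0.04 for the small subunit. Taken pair by pair, the large subunit median exceeded the small subunit median by 0.38 in pair 1, 0.33 in pair 3, 0.18 in pair 4, 0.20 in pair 5 and 0.01 in pair 6. The difference was above 0 in all 5 pairs, with a mean of 0.22 ± 0.14 (SD, n = 5). It was 0.11 when every member of a paralogue couple was left out. The sign then no longer held in pair 6, with medians of 0.46 for the large and 0.58 for the small subunit. In the other pairs the large subunit median stayed the higher one. Genes of a subunit share the arrays and are not replicates, so these values are a description with no test.

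**Figure D3:**
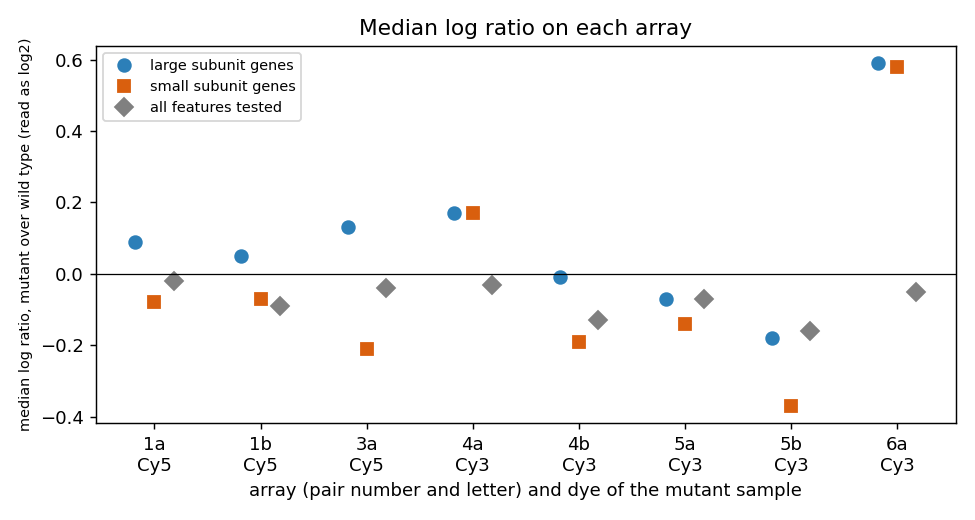
Median log ratio (vertical axis, mutant over wild type, read as log2) of large subunit genes, small subunit genes and all features tested on each array, with the dye of the mutant sample under the array name. Both subunits stand near 0.58 on array 6a, where all features are at -0.05, and within 0.4 of 0 on the other arrays.

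Pair 6 stood apart for ribosomal protein genes. Their median was 0.05, -0.01, 0.00, -0.28 and 0.58 in pairs 1, 3, 4, 5 and 6, while that of all features lay between -0.13 and -0.04. In pair 6, 28 of 37 genes (75.7%) were above 0, beside 47.1% of all features, and 8 genes reached 1. The median of the set stood at the 80.6th percentile of all features in pair 6 and at the 37.9th in pair 5. Of the 35 genes measured in all pairs, 26 (74.3%) had their highest value in pair 6, beside 29.8% of all features measured in all pairs. The small subunit gave 11 of 13 and the large subunit 15 of 22. RpLP0-like went the other way, with its lowest value (-0.86) in pair 6. High values in pair 6 were not particular to the set. Initiation factor genes and ribosome-associated genes, listed further on, also had their highest median there (0.47 and 0.59). Ribosome assembly genes had their lowest median there (-0.37), and elongation and termination factor genes had 0.16, below 0.22 in pair 3.

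Without pair 6 the median of the set was -0.07, against 0.09 with it, and 5 genes were called, 1 higher and 4 lower, beside 15.8% of all features (5.49% higher and 10.3% lower). Pair 6 is a single array with the mutant in Cy3. In that pair the medians of the marker lists were -1.73 for glia, -0.83 for mesoderm, -0.51 for hemocytes and 0.39 for the germ line. They were -0.68 for neuroblasts and ganglion mother cells, -0.53 for neurons and -0.48 for epidermis. Over the other pairs, medians ran from -0.86 to -0.21 for glia, -2.11 to 0.23 for mesoderm and -0.77 to -0.19 for hemocytes. The ranges there were -0.47 to 0.13 for the germ line, -0.68 to -0.01 for neuroblasts and ganglion mother cells, -0.63 to -0.21 for neurons and -0.31 to 0.41 for epidermis. The part of cell composition, of the single array or of amplification in the high values of pair 6 was not tested.

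Repeat arrays of a pair gave unequal pictures of the set. In pair 5, 30 of 37 genes had the same sign on both arrays (81.1%), beside 62.9% of all features, and in pair 1 it was 21 of 29 (72.4%), beside 57.5%. In pair 4 it was 15 of 35 (42.9%), beside 57.3%. There array 4a was above array 4b for 27 of 35 genes, with a median difference of 0.32, beside 0.09 for all features. Averaging the arrays of pair 4 thus brought its median to 0.00, next to 0.17 on 4a and -0.10 on 4b. Dye orientation gave 0 features past the threshold in limma, with 334 of 8295 features and 2 of 37 ribosomal protein genes (RpS10a and RpS5b) at an unadjusted p below 0.05.

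Paralogues were then compared. Of 14 couples looked for, 3 had a probe for both genes and 2 had both genes measured in at least 4 pairs. With 5 pairs an exact sign-flip permutation test cannot go below 0.062, so neither couple could pass. Cross-hybridisation between close copies was not examined.

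RpL37-1, on the X chromosome, and RpL37-2, on chromosome arm 2R, moved apart. RpL37-1 had pair values of 0.43, 0.21, 0.10, -0.08 and 1.16 for pairs 1, 3, 4, 5 and 6 (mean 0.36 ± 0.48, limma adjusted p = 0.2012), while RpL37-2 lay between -2.05 and -0.85. The values of both genes do not overlap. RpL37-1 exceeded RpL37-2 by 1.28, 2.11, 1.64, 1.97 and 2.06 in the same order, a mean difference of 1.81 ± 0.35 (SD, n = 5, higher in 5 of 5 pairs). The exact two-sided p was 0.062, also after Benjamini-Hochberg adjustment over both couples, the smallest this test can give.

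RpLP0-like is related to RpLP0, and its yeast counterpart is an assembly factor that holds the place of the stalk protein in the unfinished subunit. Its pair values were -0.49, 0.00, -0.25, -0.16 and -0.86 for pairs 1, 3, 4, 5 and 6 (mean -0.35 ± 0.33, limma adjusted p = 0.1387). RpLP0 exceeded it by 0.67, 0.63, 1.64, 0.44 and 3.36, a mean of 1.35 ± 1.22 (SD, n = 5, higher in 5 of 5 pairs, exact two-sided p = 0.062, adjusted 0.062). Without pair 6 the mean difference was 0.85. The third couple was RpL10Ab, measured in 5 pairs (0.18 ± 0.13), and RpL10Aa, at -0.48 in pair 4 and -0.43 in pair 5, where RpL10Ab had 0.40 and 0.13.

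**Figure D4:**
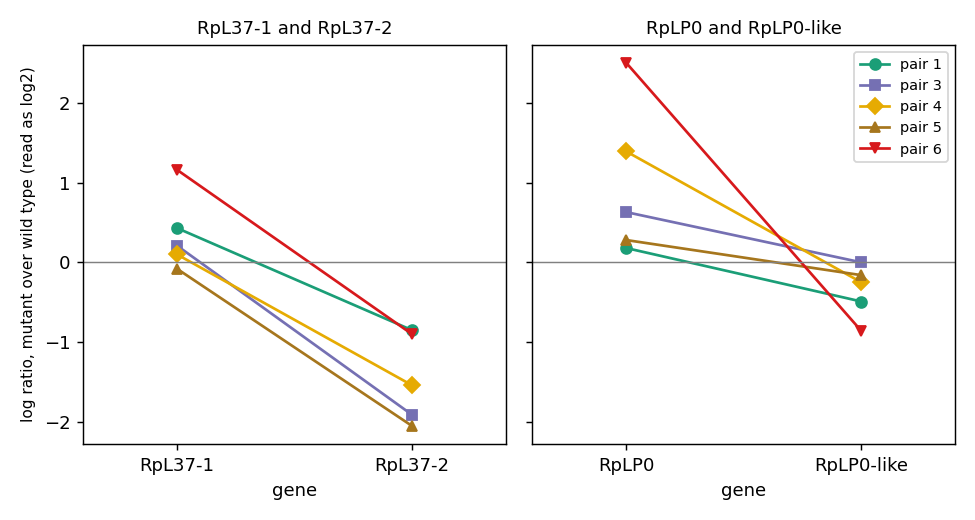
Log ratio (vertical axis, mutant over wild type, read as log2) of RpL37-1 and RpL37-2 (left) and of RpLP0 and RpLP0-like (right), with a line for each pair. The line falls in all 5 pairs for both couples, evenly for RpL37 and most steeply in pair 6 for RpLP0.

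Of the remaining couples 10 had a probe for 1 gene, and RpS14a and RpS14b had none. Over all couples, 14 paralogue members were tested, of which 2 fell (RpS10a and RpL37-2, described above) and 0 rose in limma. That is 14.3% called, beside 18.3% of all features (6.97% higher and 11.3% lower). Of 8 members above 0, 4 had an unadjusted p below 0.05, for which no share over all features was counted, so the count is not read as a result. Among other second copies known mainly from the germ line, RpL22-like, a testis form, had a mean of -0.15 ± 0.42 and RpS5b, an ovary form, 0.38 ± 0.50. RpS19b, another germ line form, had -0.44 ± 0.92, with -2.07 in pair 1 from array 1a alone and values between -0.16 and 0.21 in the other pairs. None of these passed (limma adjusted p between 0.1972 and 0.5712). Beside them, 1 of 5 tested germ line markers fell (bam, -0.69 ± 0.48, adjusted p = 0.04141), a share of 20.0% next to 18.3% of all features. The markers vas and aly were not measured on any array. RpL24-like (0.40 ± 0.38) and RpL7-like (0.33 ± 0.28), whose yeast relatives act in assembly of the large subunit, were above 0 in 5 of 5 pairs but did not pass (adjusted p = 0.1201 and 0.1338). RpL34a (0.46 ± 0.44), RpS28b (0.25 ± 0.65, n = 4) and RpS15Ab (-0.07 ± 0.21) did not pass either.

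Probes of the same ribosomal protein gene often disagreed. Of the 9 genes with at least 2 tested probes, 7 had probes of opposite sign (77.8%), beside 78 of 234 (33.3%) among all named genes. In 3 of the 9 (RpL3, RpL32 and RpS7) probes past the test stood on both sides of 0, beside 7 of 234 (2.99%), a number that includes these 3. The median distance between the highest and lowest probe of a gene was 0.97, beside 0.32 for all named genes. Gene averages of these 9 genes therefore lie between unlike values. Limma called 0 of the 9, beside 18.3% of all features, with 3 at an unadjusted p below 0.05. No share over all features was counted at that unadjusted threshold. Of the 13 member probes past the test one by one, 5 were higher and 8 lower in the mutant.

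RpL32, also known as rp49 and widely used as a reference transcript in flies, had the widest distance between probes, 2.19. Its higher probe had 1.35, 1.15, 1.37, 1.35 and 2.18 in pairs 1, 3, 4, 5 and 6 (mean 1.48 ± 0.40, SD, n = 5, limma adjusted p = 0.002029 among probes). Its lower probe had -1.25, -0.46, -0.74, -0.69 and -0.44 (mean -0.71 ± 0.33, adjusted p = 0.01794). The probes did not overlap in any pair, while their average was 0.38 ± 0.30 and did not pass (adjusted p = 0.09898).

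RpL3, a protein that reaches toward the peptidyl transferase centre, had 3 probes at 0.92 ± 0.65, 0.29 ± 0.26 and -0.93 ± 0.49 (SD, n = 5, limma adjusted p = 0.03254, 0.1641 and 0.01584 among probes). The highest ran from 0.38 to 1.97 over pairs and the lowest from -1.41 to -0.35, so they did not overlap. RpS7, of the small subunit, had 3 probes at 0.70 ± 0.21, 0.38 ± 0.43 and -0.63 ± 0.39 (adjusted p = 0.01159, 0.1565 and 0.03531). The highest lay between 0.46 and 0.95 in every pair, and the lowest between -0.93 and 0.02.

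In RpS29, 1 probe fell (-0.84 ± 0.35, limma adjusted p = 0.01218 among probes) and the other did not pass (0.13 ± 0.61). Of 3 tested RpS12 probes 1 rose (1.33 ± 0.57, adjusted p = 0.00726), and the others had 0.57 ± 0.45 and -0.17 ± 1.02. The lowest of them was at -1.69 in pair 3, the pair in which the gene average was below 0. Probes of RpL28, RpL10Ab, RpS15 and RpS21 did not pass. The annotation gives all probes of a gene the same gene identifier, and where each probe lies in its transcript was not examined, nor was probe identity.

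**Figure D5:**
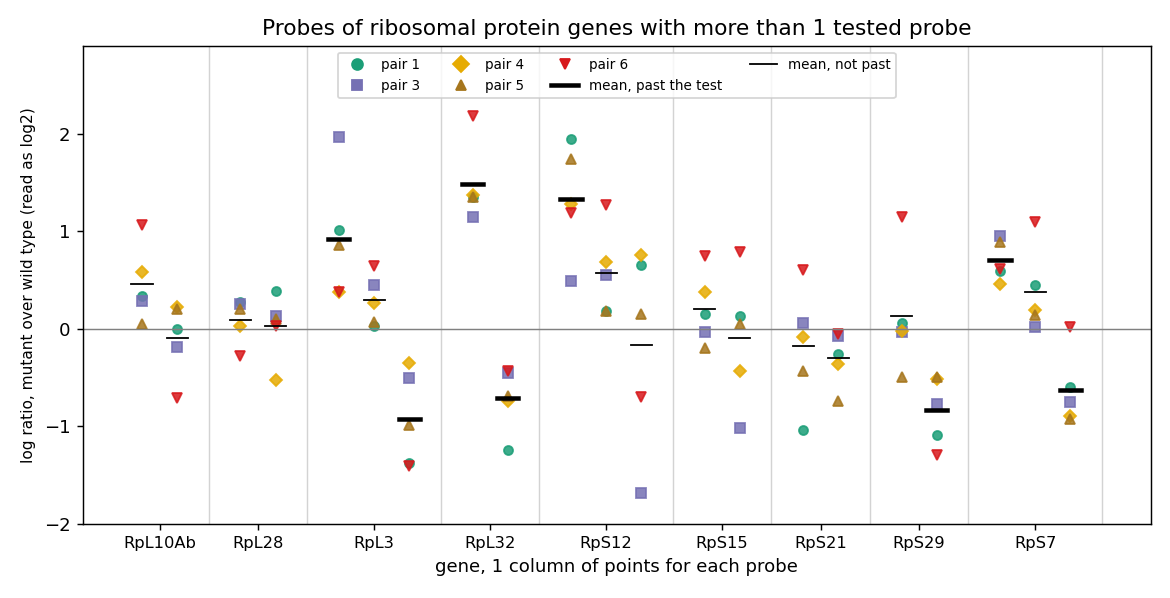
Log ratio (vertical axis, mutant over wild type, read as log2) of each tested probe of the 9 genes with more than 1 tested probe, with points for the 5 pairs and a bar for the mean, thick where the probe passed the test. Thick bars stand on both sides of 0 for RpL3, RpL32 and RpS7.

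Genes that act with the ribosome were examined beside its proteins. Of 3 tested ribosome-associated genes outside the set 1 rose and 0 fell. Rack1, a scaffold protein bound to the head of the small subunit, rose, with 1.21, 1.19, 0.67, 0.96 and 1.70 in pairs 1, 3, 4, 5 and 6 (mean 1.15 ± 0.38, SD, n = 5, limma adjusted p = 0.004926). Nacalpha was below 0 in 5 of 5 pairs but did not pass (-0.41 ± 0.16, limma adjusted p = 0.05256), and neither did bic (0.23 ± 0.34). Of 21 tested ribosome assembly genes 4 rose and 2 fell (28.6%). Those that rose were Surf6 (0.80 ± 0.43), Non1 (0.79 ± 0.17), the ribosomal RNA methyltransferase gene Fib (0.74 ± 0.42) and the pseudouridine synthase gene Nop60B (0.56 ± 0.36). NHP2 (-0.77 ± 0.43), which works in the same kind of particle as Nop60B, and the nucleostemin gene Ns1 (-0.70 ± 0.18) fell. The median of these 21 genes was -0.10, and in pair 6 it was -0.37 where that of ribosomal protein genes was 0.58. That of the 3 ribosome-associated genes was 0.59 in pair 6 and between -0.31 and 0.40 in the other pairs.

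Of 23 tested initiation factor genes 4 rose and 2 fell (26.1%), with a median of 0.26. In pair 6 the median was 0.47, and in the other pairs it lay between 0.06 and 0.32. The genes higher in the mutant were S6k (0.77 ± 0.35), the kinase of the small subunit protein RpS6, eIF3h (0.63 ± 0.39), eIF3i (0.59 ± 0.32) and eIF6 (0.55 ± 0.20), which keeps free large subunits from joining. The cap-binding protein gene eIF4E1 (-0.67 ± 0.34) and eIF4B (-0.49 ± 0.16) fell. Of 6 elongation and termination factor genes 1 rose (eEF1gamma, 0.52 ± 0.17) and 0 fell. These counts stand beside 18.3% of all features called. The difference between these lists and the ribosomal protein genes was not tested.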

How the data were processed

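RNA of 50 to 100 cells was reverse transcribed, tailed, amplified by PCR and labelled with Cy3 or Cy5, per the labels' protocols. The deposited values are log ratios of 8 arrays read as log2. Their base, normalization and centring were not stated in those sources. Base 10 would put the largest size, 7.43, beyond what a scanner spans, and with natural logs folds would be larger. Exact 0, between 36.3% and 43.7% of an array, was taken as not measured. The arrays gave 8200 to 9276 measured probes, of which 42 to 51 of 52 member probes, and their number limits the precision.

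Gene names came from the platform annotation, brought up to date with a RefSeq gene table of Release 6 plus ISO1 MT (12012 probes matched by gene identifier, 107 by accession). Probes of a gene were averaged on each array, then arrays a and b of a pair. Features with a value in at least 4 of 5 pairs were tested two-sided against 0 by the moderated test of limma 3.58.1 (R 4.3.3; functions lmFit, eBayes), adjusted over 8295 features and called below 0.05. In simulated data for this comparison with 8295 features, 64 of 100 shifts of 1 and 91 of 100 shifts of 2 were called, and 12 of 8095 unshifted features. The simulated noise was normal and independent between features, so effects that genes share on an array were left out. Fewer features were shifted than the 1517 called in the data, so recovery in the data may differ. Paralogues were compared by exact sign-flip permutation over pairs.

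The members, lists and alternatives were chosen with earlier results of these data known. Named are called genes, the 4 highest and lowest means, paralogues, the extreme spreads and called genes of the other lists. Further members are given as values chosen after they were seen. Alternatives changed direction, dye term, repeat arrays, zeros, centring, scaling, weights, filters, probe averaging, moderation, threshold and pairs.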

Additional observations from a re-analysis of the deposited data

Results flagged for a closer look

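In 5 of 42 sets of pair values examined, 1 pair lay far from the others. Chance would give about 2.1 if the sets were independent. They share the same arrays, and 3 of the 5 had the far value in pair 6, so no excess over chance can be read from the count. In pair 6, RpL24-like was at 1.06 (next highest 0.32), RpL34a at 1.21 (next highest 0.41) and RpL37A at 1.82 (next highest 0.39). RpS19b was at -2.07 in pair 1, where the nearest pair had -0.16. RpS12 was at -0.21 in pair 3, where the nearest pair had 0.58.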

How the results depend on the processing

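Features called numbered 1517, and 597 to 1309 with 1 pair left out (936, 1040, 747, 597 and 1309 without pairs 1, 3, 4, 5 and 6). They numbered 474 with array a only, 466 without moderation, and 372 and 2490 at thresholds of 0.01 and 0.1. With arrays centred the split was 805 higher and 707 lower, against 578 and 939. Ribosomal protein genes called numbered 4, 2 to 5 with 1 pair left out (2 without pair 5), 2 with array a only, 8 (of 2223 features) with all 8 arrays and pairs as random blocks, 8 (of 1988 features) with array weights, 1 without moderation, and 2 and 10 at thresholds of 0.01 and 0.1. Single probes gave 13 calls in 10 genes. Centred arrays gave 2 higher and 3 lower. Without moderation RpL27 and RpL37-2 had an adjusted p of 0.05614 each. Read as Cy5 over Cy3, 0 features and 0 members were called in limma (117 and 1 at an unadjusted p below 0.05), asense was at 1.34, and the large minus small subunit difference was 0.06. That reading turned RpL37-1 minus RpL37-2 to -0.46 and RpLP0 minus RpLP0-like to -0.83. It turned RpL27 to -0.57, RpL37-2 to 0.35, RpL17 to 0.09, RpL10Ab to -0.10, RpL15 to 0.09, RpL22-like to 0.33, RpL24-like to -0.24, RpL34a to -0.13, RpL37-1 to -0.11, RpL37A to -0.23, RpL7-like to -0.10, RpLP0 to -0.67, RpLP0-like to 0.15, RpS12 to -0.31, RpS28b to -0.04 and RpS5b to -0.47. Members that were not called also changed sign, RpL15 (0.01) and RpS15Ab (0.01) with array a only, RpL22-like (0.02) and RpS19b (0.10) with array b, RpS15Ab (0.01) with arrays centred and RpS28b (-0.03) without pair 6. RpS28b ran from -0.03 to 0.44 with 1 pair left out. The median of the set ran from -0.10 to 0.18 over the alternatives. The test is itself paired, since each ratio sets a mutant sample against its wild-type partner. The Cy5 over Cy3 reading reverses the sign of every array with the mutant in Cy3, so its shifts follow from how it is defined. The causes of the other shifts were not tested.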

Other observations

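By chromosome arm, the median log ratio of ribosomal protein genes was 0.25 for 3 genes on X, 0.06 for 8 on 2L, -0.15 for 9 on 2R, 0.18 for 5 on 3L and 0.16 for 12 on 3R. All tested features of these arms had medians between -0.09 and -0.04. The calls were RpL17 on X, RpL37-2 on 2R, and RpL27 and RpS10a on 3R, 1 of 3, 1 of 9 and 2 of 12 genes tested there, beside 16.4%, 22.1% and 17.5% of all tested features of these arms. On 2L 0 of 8 and on 3L 0 of 5 were called in limma, beside 16.5% and 20.0%. On each of these arms 2 genes had an unadjusted p below 0.05, for which no share over all features was counted. RpS27A on 2L and RpLP0 and RpS12 on 3L came closest there, with adjusted p between 0.05037 and 0.06941.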
